A study of Mus musculus with 27 samples.

Results

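Regulatory T cells are the CD4 T cells that express Foxp3, the transcription factor that sets their programme. Members were chosen by measured values, the raw counts of unique molecular identifiers (UMIs, each marking 1 captured RNA molecule) in CD45-positive cells of mouse MC38 tumours. A cell was a member if it had at least 2 UMIs of the T cell receptor complex genes Cd3d, Cd3e and Cd3g together, at least 1 UMI of Foxp3, none of the CD8 genes Cd8a and Cd8b1, and none of the macrophage genes Csf1r and Adgre1. Among 20299 cells with at least 1000 UMIs, at least 500 genes and at most 10% mitochondrial UMIs, 1130 were members, 533 of 10213 in the WT matrix and 597 of 10086 in the KO matrix. MC38 is a mouse colon adenocarcinoma cell line. WT mice carried a floxed Ogt gene, and KO mice carried the same floxed gene with Lyz2-cre, which deletes floxed DNA in macrophages, monocytes and neutrophils. Ogt encodes the enzyme that attaches O-GlcNAc, a single sugar, to nuclear and cytoplasmic proteins. The labels name 2 CD45-sorted samples per genotype, and the files hold 1 matrix per genotype, so that the comparison of genotypes had no replicate and no test in these cells; bulk RNA of tumour macrophages had 3 libraries per genotype.

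Regulatory T cells restrain other immune cells. They take up interleukin-2 through a receptor with the alpha chain CD25 (Il2ra), remove costimulatory ligands from antigen-presenting cells with CTLA-4, activate TGF-beta with GARP (Lrrc32) and integrin beta 8 (Itgb8), and secrete IL-10 and granzyme B. In tumours they often carry receptors of activated tissue cells such as 4-1BB (Tnfrsf9), ST2 (Il1rl1) and CCR8, and they are drawn by macrophage chemokines such as CCL17 and CCL22. Members of both matrices were compared to ask how these cells differ in tumours of mice in which Lyz2-cre targets Ogt in myeloid cells.

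Members had a median of 5336 UMIs and 2170 genes in WT and of 5746 UMIs and 2215 genes in KO, with 3684783 and 4252101 UMIs in all. Of the members, 264 in WT and 272 in KO had exactly 1 Foxp3 UMI, 129 and 156 had 2, 78 and 81 had 3, and 62 and 88 had 4 or more. Just outside the gate, 47 WT and 80 KO cells with a Foxp3 UMI failed only for a CD8 UMI, 40 and 30 only for too few CD3 UMIs, and 49 and 42 only for a macrophage UMI. Cells that should lack Foxp3 carried it rarely. In a macrophage gate (at least 2 UMIs of Csf1r and Adgre1, no CD3 UMI) 7 of 1373 WT cells (0.510%) and 5 of 1359 KO cells (0.368%) had a Foxp3 UMI, at median depths of 8380 and 8472 UMIs. In an NK gate (at least 2 UMIs of Ncr1 and Klrb1c, no CD3, Csf1r or Adgre1 UMI) 3 of 811 WT cells (0.370%) and 5 of 553 KO cells (0.904%) had one. The matrices shared 25 barcodes among the cells kept, none of them a member. Levels are UMI counts scaled to a common total (CPM) and summed over the members of a matrix, and their 95% intervals, exact Poisson for levels, exact conditional for fold changes and exact binomial for shares, cover counting error only. UMIs of 1 cell are not independent, so these intervals are too narrow for a statement about genotypes.

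Members made up a similar share of the T cells without CD8 in both matrices. They were 533 of 2203 such cells in WT (24.2%, 22.4 to 26.0) and 597 of 2433 in KO (24.5%, 22.8 to 26.3). Of all cells kept they were 5.22% in WT (4.80 to 5.67) and 5.92% in KO (5.47 to 6.40), a ratio of 1.13, and the intervals overlapped. That second share also rests on the number of every other cell type in the sort.

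The markers that were not used to choose the cells went with Foxp3. At least 1 UMI of Il2ra, Itgb8, Lrrc32 or Izumo1r (a folate receptor family protein, FR4) was found in 502 of 533 WT members (94.2%) and in 583 of 597 KO members (97.7%). Il2ra stood at 740 CPM in WT members and 968 in KO members, against 365 and 297 in conventional CD4 T cells. The cells called conventional passed the same gate with no Foxp3 UMI and at least 1 Cd4 UMI (606 WT and 792 KO cells). Of the members, 264 in WT and 272 in KO had exactly 1 Foxp3 UMI, and 274 and 350 had a Cd4 UMI. Regulatory T cells in which no Foxp3 RNA was captured would fall in the class called conventional. Their number was not tested. A Cd4 UMI was required of that class and not of the members. Itgb8 stood at 188 and 218 CPM in members and at 67.0 and 55.1 in conventional CD4 T cells. Ikzf2, which encodes Helios, a transcription factor that stabilises the regulatory programme, stood at 2165 and 2236 CPM in members and at 893 and 668 in conventional CD4 T cells. Nrp1 (neuropilin 1), a marker of thymus-derived regulatory T cells in mice, went the other way, with 22.0 and 22.8 CPM in members and 57.8 and 58.4 in conventional CD4 T cells. Of 14 identity genes with enough UMIs to compare, 12 were at least 1.5-fold higher in members than in conventional CD4 T cells in each matrix, where 4.87% of all genes were higher in WT and 7.89% in KO. As Foxp3 chose the cells, these levels describe the gate and test nothing.

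**Figure D1:**
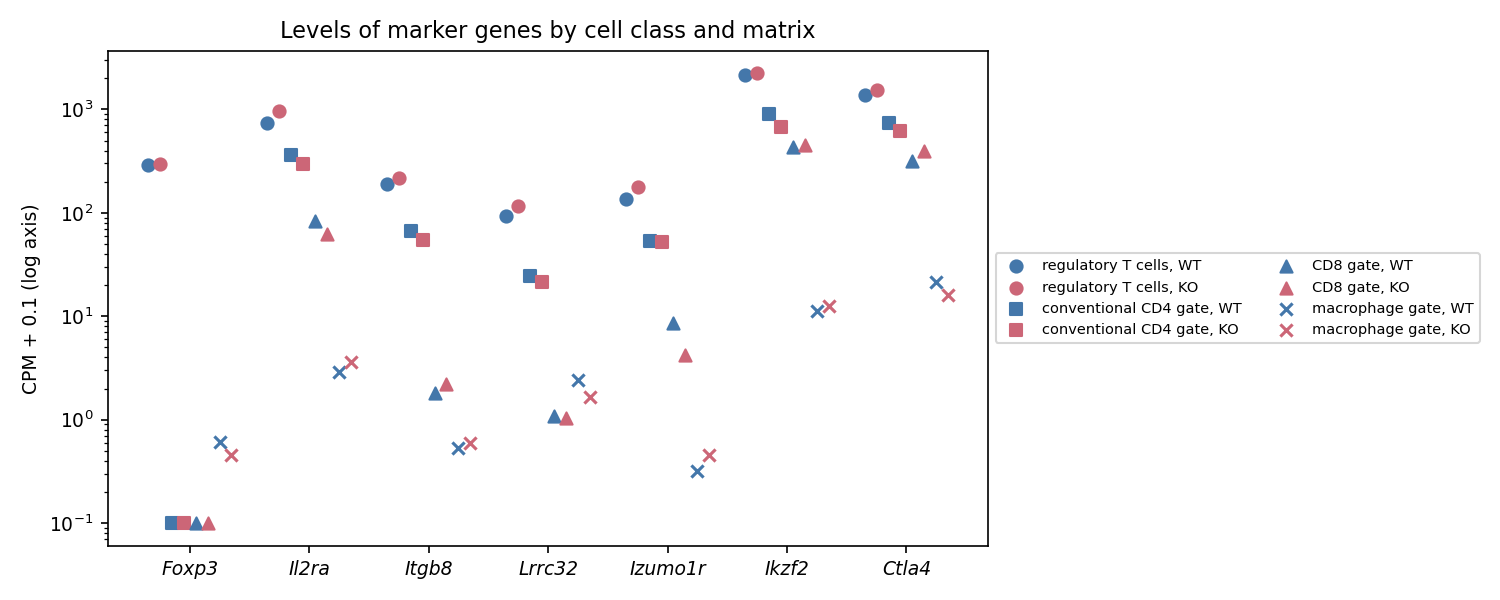
Level (CPM + 0.1, log axis) of 7 marker genes in regulatory T cells, conventional CD4 T cells, CD8 T cells and cells of the macrophage gate, 1 symbol per class and matrix (blue WT, red KO, 1 matrix each, no replicates). The circles of the regulatory T cells lie above the other classes for all 7 genes, and Foxp3 is at 0 by the gate in the other T cell classes.

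Cells with a single Foxp3 UMI resembled those with more in their levels of Il2ra and Ikzf2. In WT, Il2ra was 738 CPM in members with 1 Foxp3 UMI and 742 CPM in those with at least 2, and Ikzf2 was 2173 and 2160 CPM. In KO, Il2ra was 943 and 984 CPM and Ikzf2 2285 and 2203 CPM. Itgb8 was higher with 1 Foxp3 UMI, at 211 and 172 CPM in WT and 256 and 192 in KO. Lrrc32 was 81.7 and 102 CPM in WT and 119 and 114 in KO.

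Between the genotypes, 6227 genes with at least 100 UMIs in all and at least 20 CPM in 1 matrix were compared as log2 of the ratio of CPM + 5, KO over WT. Of these, 74 (1.19%) were at least 1.5-fold higher in KO and 89 (1.43%) at least 1.5-fold lower. The median log2 ratio over all genes was -0.02, with 2805 ratios above 0 and 3422 below. The plot of the role lists shows where the differences lay: members of the interferon, chemokine and tumour-tissue lists were among the higher genes, and members of the heat shock and cell cycle lists among the lower ones.

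**Figure D2:**
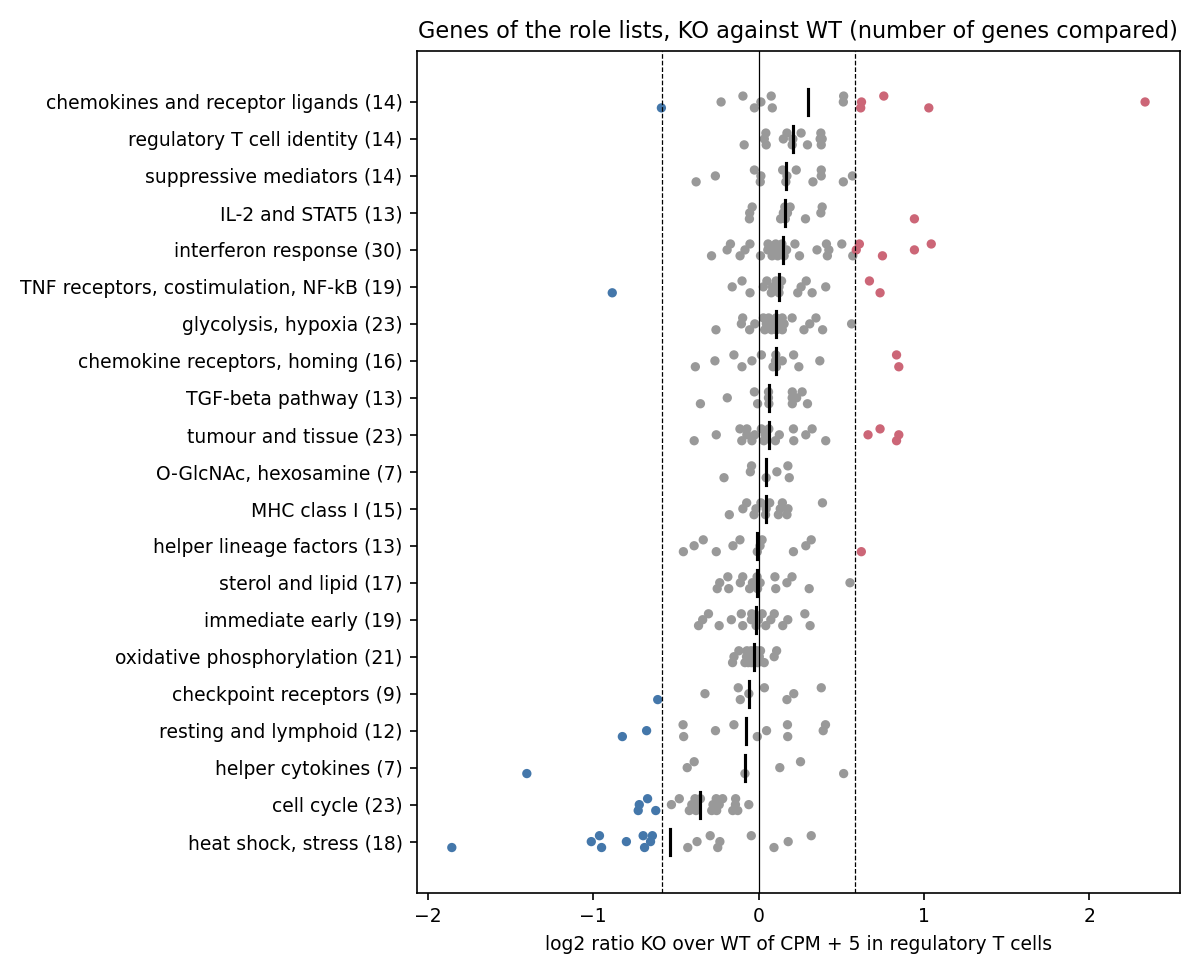
Each point is 1 gene of a role list, placed by its log2 ratio of CPM + 5, KO over WT, in regulatory T cells (1 matrix per genotype); the number of genes compared stands in brackets, black bars are list medians and dashed lines mark a 1.5-fold difference. Points past the fold are red (higher in KO) or blue (lower in KO), and the list medians run from -0.54 for heat shock to 0.30 for chemokines and receptor ligands.

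None of the 14 identity genes compared passed 1.5-fold between the genotypes. Of the 14 log2 ratios, 13 were above 0 (2805 of 6227 over all genes), and their median was 0.20. Foxp3 stood at 290 CPM in WT and 298 in KO (fold 1.02, 0.94 to 1.11). Each member needed at least 1 Foxp3 UMI to pass the gate, so the Foxp3 ratio is partly set by the gate and tests nothing. Il2ra had a log2 ratio of 0.38 (fold 1.31, 1.25 to 1.37). Itgb8 had a log2 ratio of 0.20. Lrrc32 rested on 93.4 CPM in WT and 116 in KO, and Izumo1r on 135 and 176 CPM. Ctla4 stood at 1375 and 1549 CPM and Tnfrsf18, which encodes the costimulatory receptor GITR, at 779 and 932 CPM. When each cell was thinned to 1000 UMIs, 44.8% of WT members and 54.9% of KO members had an Il2ra UMI (83.1% in WT before thinning). Tnfrsf18 was found in 51.6% and 61.1%, while Ikzf2 was found in 80.3% and 81.2% and Ctla4 in 63.8% and 63.5%.

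Of the suppressive mediators, 14 were compared and none passed 1.5-fold. Log2 ratios were above 0 for 11 of them (2805 of 6227 over all genes), with a median of 0.17. Gzmb, the cytotoxic protease granzyme B, came closest, with 1929 CPM in WT and 2861 in KO (log2 ratio 0.57, fold 1.48, 1.44 to 1.53). It was found in 58.7% and 72.7% of members thinned to 1000 UMIs. In CD8 T cells (at least 2 UMIs of Cd8a and Cd8b1, no Cd4 or Foxp3) Gzmb stood at 1968 and 2095 CPM. Il10 stood at 114 CPM in WT and 165 in KO (fold 1.44, 1.28 to 1.63). Fgl2, a secreted inhibitor of dendritic cells, stood at 149 and 188 CPM, and Entpd1, which encodes the ATP-degrading ectoenzyme CD39, at 119 and 156 CPM. Areg, the tissue repair factor amphiregulin, stood at 1238 and 1369 CPM and Tgfb1 at 242 and 238 CPM. Penk, which encodes proenkephalin, had 376 CPM in WT and 288 in KO, the lowest ratio of the list at -0.38.

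Of the 13 genes of IL-2 signalling, Socs1 was past the fold. It encodes a suppressor of cytokine signalling that is induced by interferons and IL-2 alike, and it stood at 167 CPM in WT and 325 in KO (fold 1.95, 1.77 to 2.15). The receptor beta chain Il2rb had 512 and 568 CPM, Cish, a target of STAT5, 251 and 281 CPM, and Stat5b 236 and 227 CPM. Il15ra, the receptor chain that presents IL-15 to neighbouring cells, was outside the lists and among the 10 highest ratios of all genes. It had 49.1 CPM from 84 cells in WT and 122 CPM from 166 cells in KO (log2 ratio 1.23), against log2 ratios of 0.36 in conventional CD4 T cells and 0.14 in CD8 T cells.

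Of 19 costimulation and NF-kB genes, 2 were higher and 1 lower in KO past the fold, with a median of 0.12. Tnfrsf9, the TNF receptor 4-1BB that antigen stimulation induces, stood at 1058 CPM in WT and 1764 in KO (fold 1.67, 1.60 to 1.73). It was found in 61.4% of thinned WT members and 78.4% of thinned KO members. The same gene was also higher in conventional CD4 T cells (459 and 816 CPM), CD8 T cells (261 and 496 CPM) and the macrophage gate (14.6 and 80.0 CPM). Bcl3, an inhibitor of NF-kB family proteins in the nucleus, had 70.6 and 115 CPM. Cd83 had 114 CPM in WT and 59.3 in KO (log2 ratio -0.89), and it was also lower in conventional CD4 T cells (114 and 65.3 CPM) and CD8 T cells (33.7 and 12.2 CPM). Tnfrsf4 (OX40) stood at 899 and 1127 CPM and Icos at 779 and 1033 CPM, neither past the fold. None of the 19 genes of immediate early activation passed it, with a median of -0.02, and Nr4a1, a reporter of recent T cell receptor signals, had 417 CPM in WT and 390 in KO.

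Of 23 genes known from regulatory T cells of tumours and tissues, 4 were higher in KO members past the fold (1.19% of all genes). None was lower (1.43% of all genes), and the median was 0.06. In CD8 T cells 3 of the same 23 genes were higher and none lower, with a median of 0.13 (1.37% of all genes were higher there), and in conventional CD4 T cells 1 was higher, with a median of -0.12 (1.19%). Apart from Tnfrsf9, the genes higher in members were Il1rl1 (ST2, the receptor of IL-33), Itgae (CD103, an integrin that binds E-cadherin) and Cxcr6 (the receptor of CXCL16). Il1rl1 stood at 87.7 CPM in WT and 142 in KO (fold 1.62, 1.41 to 1.85), while conventional CD4 T cells had 75.7 and 61.2 CPM. Itgae stood at 39.6 CPM in WT and 74.6 in KO (fold 1.88, 1.54 to 2.31), while conventional CD4 T cells had 18.1 and 14.0 CPM. Cxcr6 stood at 21.2 and 42.1 CPM, from 48 WT and 72 KO members, and conventional CD4 T cells had 151 and 168 CPM and CD8 T cells 137 and 207. Ccr8, the chemokine receptor most often used to mark tumour regulatory T cells, stood at 35.3 and 35.7 CPM. Klrg1, a lectin-like receptor of differentiated cells, had 289 and 315 CPM, Rora 1173 and 1084, and Gata3, a transcription factor of ST2-positive cells, 205 and 171. Of 16 chemokine receptor and homing genes only Cxcr6 and Itgae passed the fold.

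Of 13 helper lineage factors, Tbx21 was past the fold. It encodes T-bet, the factor of type 1 helper cells, and stood at 113 CPM in WT and 176 in KO (fold 1.56, 1.38 to 1.77), while conventional CD4 T cells had 131 and 137 CPM. Stat4 had 434 CPM in WT and 315 in KO. The effector cytokine Ifng had 96.6 and 70.3 CPM in members and 231 and 571 in conventional CD4 T cells. Csf2 (GM-CSF) had 31.2 CPM from 26 WT members and 8.70 CPM from 17 KO members, the lowest of 7 helper cytokine ratios at -1.40. Of 9 checkpoint receptors, Btla alone passed the fold, with 38.5 CPM in WT and 23.5 in KO, and Havcr2 (TIM-3) had 149 and 137 CPM. None of 13 genes of the TGF-beta pathway passed it. Among members without a UMI of the macrophage genes C1qa, C1qb, C1qc and Apoe, an alternative added after seeing the data, Tbx21 (0.55) and Btla (-0.41) were under the fold, as was Bcl3 (0.49).

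**Figure D3:**
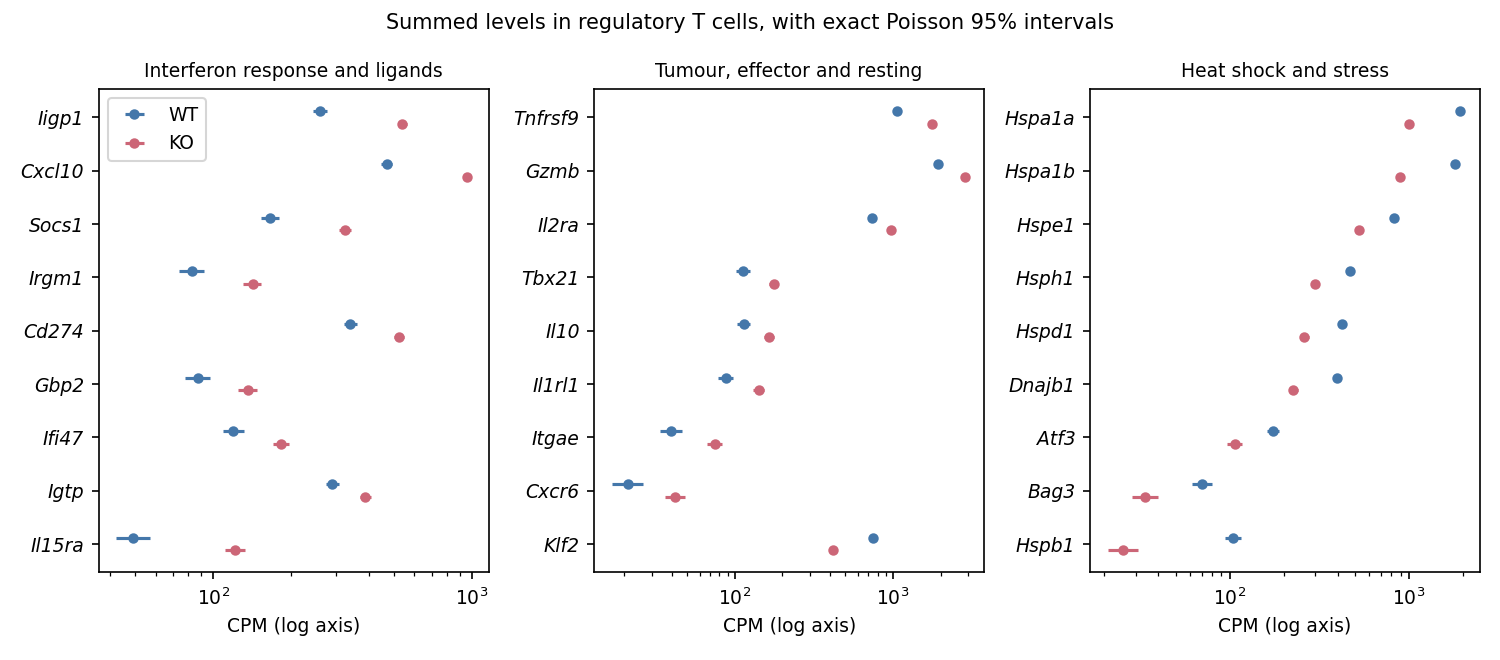
Summed level (CPM, log axis) of 27 genes in regulatory T cells of the WT matrix (blue) and the KO matrix (red), with exact Poisson 95% intervals that cover counting error only. Iigp1, Cxcl10, Socs1 and Tnfrsf9 lie to the right in KO, and Klf2 and the 9 heat shock and stress genes of the right panel lie to the left.

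Resting regulatory T cells of lymphoid organs express CCR7 and the transcription factors LEF1, BACH2 and KLF2. Of 12 such genes, 2 were lower in KO past the fold and the median was -0.08. Klf2, which keeps T cells circulating, stood at 747 CPM in WT and 420 in KO (1.78-fold lower, 1.68 to 1.89). It was lower in every class set beside it, with 635 and 345 CPM in conventional CD4 T cells, 566 and 232 in CD8 T cells and 1201 and 671 in the macrophage gate. Il6ra had 31.2 and 17.6 CPM. Lef1 (121 and 87.0 CPM) and Bach2 (126 and 91.0 CPM) were lower by less than 1.5-fold, and Il7r (211 and 279 CPM) lay above 0.

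Members were then sorted into states by gates on a few genes, each cell thinned to 1000 UMIs. A tumour gate (at least 2 UMIs of Ccr8, Tnfrsf9, Il1rl1 and Klrg1) held 45.0% of WT members (40.7 to 49.4) and 64.5% of KO members (60.5 to 68.3). Without Tnfrsf9 the shares lay closer together. A gate of at least 1 UMI of Ccr8, Il1rl1 or Klrg1, chosen after seeing the data, held 31.7% (27.8 to 35.8) and 35.5% (31.7 to 39.5). Without thinning, the tumour gate held 92.1% and 98.2%, so that the gate is a cut through a range and depends on depth.

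Genes outside the tumour gate's own 4 differed between the cells in it and the rest in both matrices. Inside the gate Il2ra stood at 866 CPM and outside it at 648 in WT, and at 1112 and 758 in KO. Itgae stood at 50.9 and 31.4 CPM in WT and at 89.8 and 52.4 in KO, while Ifng was lower inside the gate, with 58.6 and 124 CPM in WT and 46.5 and 105 in KO.

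**Figure D4:**
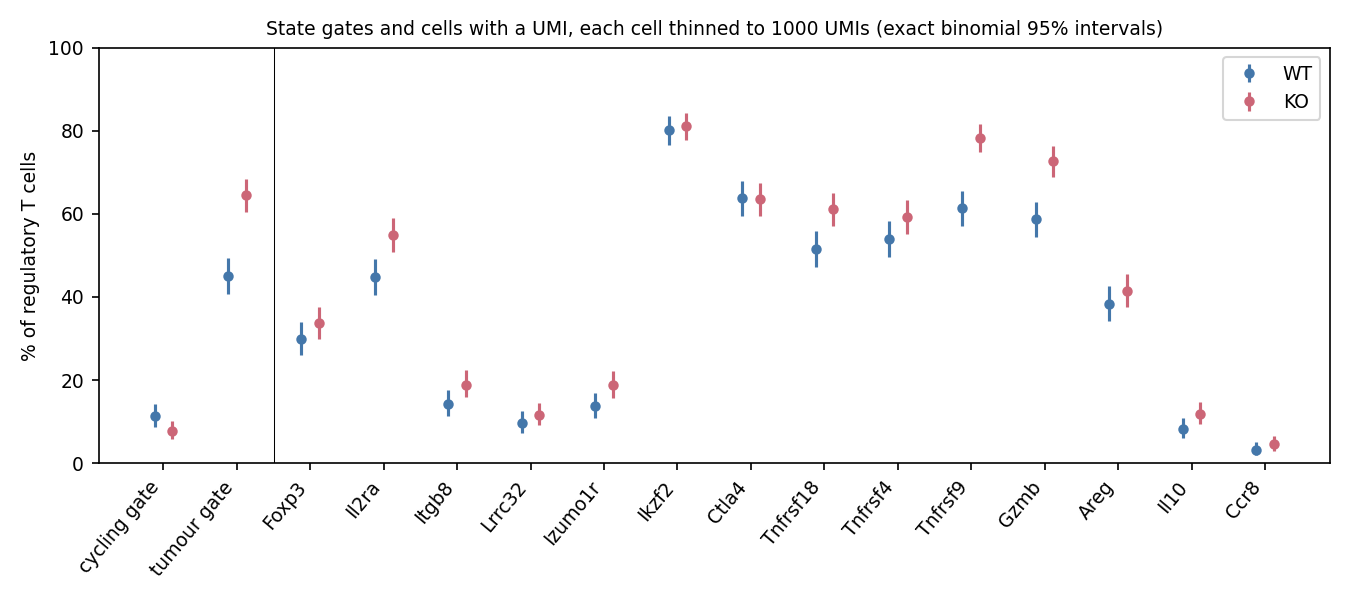
Share of regulatory T cells (%, 533 WT and 597 KO cells, each thinned to 1000 UMIs) that pass each state gate, left of the line, or hold at least 1 UMI of the gene named, with exact binomial 95% intervals. The tumour gate, Il2ra, Tnfrsf18, Tnfrsf9 and Gzmb lie higher in KO with intervals that do not overlap, and Ikzf2 and Ctla4 lie level.

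The share of cycling members was lower in KO, with overlapping intervals. A UMI of Mki67 or Top2a, genes of dividing cells, was found in 60 of 533 thinned WT members (11.3%, 8.70 to 14.3) and 46 of 597 thinned KO members (7.71%, 5.70 to 10.1), and in 29.3% and 28.0% without thinning. All 23 cell cycle genes compared had log2 ratios below 0 (3422 of 6227 over all genes), with a median of -0.35. Past the fold 4 were lower (1.43% of all genes): Mki67 (112 and 68.7 CPM), Tpx2 (37.2 and 20.5), Cenpe (22.3 and 11.5) and Mcm5 (40.7 and 24.7). Among members without a UMI of the macrophage genes C1qa, C1qb, C1qc and Apoe, an alternative chosen after seeing the data that left 415 WT and 447 KO members, none of 23 passed the fold and the median was -0.20. With Lyz2 added to those genes, none of 22 passed and the median was -0.07; as Lyz2 RNA was nearly absent in KO, that filter took more cells from WT (342 and 446 members left). The list's median was 0.17 in conventional CD4 T cells and -0.57 in CD8 T cells. Cycling members were deeper, with a median of 9400 UMIs against 5141 for the rest in WT and 8269 against 5584 in KO. Il1rl1 was lower in cycling members, with 56.0 CPM against 93.9 in WT and 39.1 against 158 in KO, as was Penk, with 219 against 407 and 109 against 317 CPM.

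Interferons act through JAK kinases on promoters with interferon-stimulated response elements or gamma-activated sites, and the guanosine triphosphatases of the Irg and Gbp families are among the strongest targets of interferon gamma. Of 30 interferon response genes, 5 were higher in KO members past the fold and none was lower (1.19% and 1.43% of all genes). Log2 ratios were above 0 for 24 of them (2805 of 6227 over all genes), and the median was 0.15. Iigp1, an Irg family protein that attacks the vacuoles of intracellular parasites, stood at 259 CPM in WT and 540 in KO (fold 2.08, 1.93 to 2.25), from 274 and 401 cells. Besides Socs1 the others were Irgm1, an Irg family regulator of autophagy, with 82.5 CPM in WT and 142 in KO, the guanylate-binding protein gene Gbp2 with 87.4 and 136, and Ifi47, another Irg family gene, with 120 and 183. Near the fold were Gbp4 (101 and 153 CPM), Igtp (289 and 388 CPM) and Irf1, a transcription factor induced early by interferon gamma (464 and 618 CPM). Of genes that type I interferon also induces, Ifit1 had 62.4 and 90.5 CPM, Usp18 34.5 and 48.0 and Rsad2 66.5 and 86.3, while Isg15 had 393 and 416, Bst2 569 and 537 and Ifit3 38.0 and 38.3. None of these 6 passed the fold.

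The same 30 genes had medians of -0.16 in conventional CD4 T cells, -0.07 in CD8 T cells, -0.22 in the NK gate and 0.04 in the macrophage gate, where 8 passed the fold upwards (2.67% of all genes did). In conventional CD4 T cells none was higher and 3 were lower, where 1.19% and 1.93% of all genes were. Iigp1 stood at 120 and 140 CPM in conventional CD4 T cells, 23.3 and 41.3 in CD8 T cells and 57.9 and 238 in the macrophage gate. Gbp2 in the macrophage gate stood at 150 and 383 CPM and Irgm1 at 121 and 227. Macrophage RNA was present in the members: Lyz2, C1qb and Apoe in WT members reached 2.46%, 2.45% and 2.34% of their level in the macrophage gate, and C1qb and Apoe in KO members 1.47% and 2.28%. Among the members without a UMI of C1qa, C1qb, C1qc and Apoe, 3 of the 30 genes passed the fold, with a median of 0.10 and log2 ratios of 0.92 for Iigp1, 0.79 for Socs1, 0.66 for Irgm1, 0.47 for Gbp2 and 0.45 for Ifi47. Without the cell with most UMIs of each gene, an alternative chosen after seeing the data, Gbp2 (0.56) and Ifi47 (0.58) were just under the fold, as was Ifi47 without doublets (0.58).

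Promoters of the interferon response genes were read from RefSeq on GRCm38.p6. The 250 bases before the start were searched on both strands for the core of the interferon-stimulated response element, taken as GAAA, any 2 bases and GAAA. It was found in 936 of 27025 genes (3.46%), and in 15 of the 21 interferon response genes that had an entry (71.4%). Of the 5 past the fold, 4 had an entry and 3 a match (75%), a share near that of the list. The 3 were Irgm1, Socs1 and Gbp2. Stretches of 100 bases around the matches are printed here with the match in capitals, on the strand of the gene, together with that of Cxcl10, an interferon-induced chemokine. Irgm1 (chr11:48871421-48871520, minus strand) held 2 overlapping matches that begin 30 and 24 bases before the start, and Socs1 (chr16:10785570-10785669, minus strand) 2 overlapping ones that begin 83 and 77 bases before it. Gbp2 (chr3:142620554-142620653, plus strand) held 1 match in reverse, 59 bases before the start, and Cxcl10 (chr5:92349040-92349139, minus strand) 1 match 213 bases before it.
Irgm1: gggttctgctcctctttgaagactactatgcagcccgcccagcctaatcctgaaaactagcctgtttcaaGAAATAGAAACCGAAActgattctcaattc
Socs1: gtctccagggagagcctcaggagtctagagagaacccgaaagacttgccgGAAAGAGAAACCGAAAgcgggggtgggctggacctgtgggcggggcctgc
Gbp2: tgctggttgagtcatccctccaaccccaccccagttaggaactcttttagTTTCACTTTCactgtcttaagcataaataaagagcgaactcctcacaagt
Cxcl10: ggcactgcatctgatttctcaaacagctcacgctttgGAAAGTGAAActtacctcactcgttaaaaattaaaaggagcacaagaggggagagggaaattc
A match is a description of the letters and does not show that a factor was bound there in these cells.

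Members also expressed chemokines and ligands themselves. Cxcl10, which attracts CXCR3-positive T cells, stood at 469 CPM from 225 WT members and 962 CPM from 319 KO members (fold 2.05, 1.94 to 2.17), while conventional CD4 T cells had 443 and 431 CPM and the macrophage gate 728 and 911. Cd274, which encodes the checkpoint ligand PD-L1, stood at 340 and 524 CPM (fold 1.54, 1.44 to 1.65), and at 369 and 614 in the macrophage gate. The inflammatory chemokine genes Ccl3 and Ccl4 stood at 102 and 175 CPM and at 474 and 732 CPM. Ccl1, the ligand of CCR8, had 3.53 CPM in WT and 38.1 in KO, with 60 of the 162 KO UMIs in 1 cell and 8 KO cells in all. Cd86, a costimulatory ligand of antigen-presenting cells that CTLA-4 strips from them, had 71.1 and 45.6 CPM (log2 ratio -0.59). It was no longer past the fold among members without a UMI of C1qa, C1qb, C1qc and Apoe (-0.37) or without doublets (-0.41), and without those UMIs Ccl3 (0.57) and Cd274 (0.56) were just under it. With these, 5 of 14 genes of the list compared were higher past the fold and 1 was lower. The macrophage gate, whose RNA reached the members at the low levels given above, moved the same way for Cxcl10 and Cd274, and its part in the difference was not tested.

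Of 18 heat shock and stress genes, 9 were lower past the fold (1.43% of all genes), none was higher, and the median was -0.54. Hspa1a and Hspa1b, near-identical genes of the inducible HSP70 chaperone whose reads are hard to tell apart, stood at 1936 and 1812 CPM in WT and at 999.5 and 896 in KO. Their cofactor Dnajb1 (an HSP40) had 399 and 227 CPM, the nucleotide exchange factor Bag3 70.3 and 33.6, and the small heat shock protein gene Hspb1 105 and 25.4. Hsph1 (471 and 300 CPM), the mitochondrial chaperonin pair Hspd1 (426 and 261) and Hspe1 (828 and 524), and the stress transcription factor Atf3 (175 and 107) were lower too. Hspa5, a chaperone of the endoplasmic reticulum, had a log2 ratio of 0.09, and Herpud1, a gene of protein degradation there, one of 0.18. In the other classes, 3 of these 18 genes were lower past the fold in conventional CD4 T cells (median -0.20), 6 in CD8 T cells (-0.22), 9 in the NK gate (-0.59) and 10 in the macrophage gate (-0.65). Over all genes, 1.93%, 2.22%, 2.01% and 1.12% were lower past the fold in these classes. Each genotype was 1 matrix, so that the handling of the samples and the genotype cannot be told apart.

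The heat shock element was searched in the same windows, as GAA, TTC and GAA, or TTC, GAA and TTC, with any 2 bases between neighbouring triplets, on both strands. It was found in 139 of 27025 genes (0.514%) and in 2 of the 15 heat shock and stress genes with an entry, Hspd1 and Hspe1, which share 1 divergent promoter. A stretch of 100 bases that lies 40 to 139 bases before the start of Hspe1 (chr1:55088009-55088108, plus strand) is shown. Its overlapping matches, which begin 89 and 84 bases before the start, are in capitals.
Hspe1: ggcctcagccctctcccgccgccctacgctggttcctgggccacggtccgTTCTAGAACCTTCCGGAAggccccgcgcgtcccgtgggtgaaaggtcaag
For the other genes these letters are not in the window searched, which says nothing about the factor.

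RNA of the gene that Lyz2-cre targets was present in the members of both genotypes. Ogt stood at 163 CPM in WT and 141 in KO (fold 0.86, 0.77 to 0.97), with a UMI in 55.7% and 55.9% of members, and Oga, which removes the sugar, at 170 and 164 CPM. None of the 7 genes of the hexosamine pathway and O-GlcNAc cycling compared passed the fold. Egr2, the factor named in the study's title, had 12.2 and 11.8 CPM and fell below the level for comparison. Lyz2, the lysozyme gene into which cre is inserted, had 413 UMIs from 103 members in WT and 3 UMIs in KO, and the macrophage gate had 4565 and 15.3 CPM, lower in KO in both.

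No gene of the metabolic lists passed the fold. None of 23 genes of glycolysis and hypoxia did so (median 0.11). Among them Egln3, an oxygen sensor, had a log2 ratio of 0.56 and Eno1 one of 0.35. None of 21 genes of oxidative phosphorylation passed it, with log2 ratios from -0.16 to 0.11, and none of 17 genes of sterols and lipids, where Fabp5, a fatty acid carrier, had 316 and 466 CPM. None of 15 genes of MHC class I presentation passed it, with 4122 and 4642 CPM for H2-K1 and a median of 0.05.

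The largest ratios over all genes were of different kinds. H2-T10, a class I gene of the H2-T region, had 30.1 CPM from 94 WT members and 141 CPM from 330 KO members (log2 ratio 2.05). It was also higher in conventional CD4 T cells (1.72), CD8 T cells (1.70), the NK gate (1.03) and the macrophage gate (1.55), and reads of class I genes are hard to assign. H2bc4, a histone gene, had a log2 ratio of 1.09 in members and 1.03 in conventional CD4 T cells. Serpinb9b, a serpin of the granzyme B inhibitor family, had 0.814 and 32.0 CPM, but 107 of its 136 KO UMIs came from 1 cell. Ccl9 (81 of 164 KO UMIs), Slc7a11 (40 of 160) and Cxcl3 (83 of 244) also drew much of their count from 1 cell. In WT, 50 of the 85 Cxcl3 UMIs came from 1 cell as well. Without the cell with most UMIs of each gene in each matrix, the log2 ratios were 1.17 for Serpinb9b (2.67 with it) and 0.97 for Ccl9 (1.61). For Slc7a11 the ratio was then 1.43 (1.58), and for Cxcl3 it was 1.57 (1.15). Lower in KO were Mid1, a ubiquitin ligase gene, with 99.1 and 7.76 CPM (log2 ratio -3.03), and Cdk5rap1, a tRNA-modifying enzyme, with 29.0 and 6.35 CPM (-1.58). These were lower in every other class as well, by log2 ratios of -1.97 to -2.59 for Mid1 and -0.99 to -1.35 for Cdk5rap1. Pakap had 135 and 65.4 CPM (-0.99), against -0.54 in conventional CD4 T cells and -0.67 in CD8 T cells.

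RNA of other cell types in the members was low and not equal in the matrices. The summed level of 15 macrophage genes was 807 CPM in WT and 659 in KO, with Lyz1 at 0 in WT, that of 7 neutrophil genes 197 and 288, and that of 7 B and plasma cell genes 178 and 257. The 6 CD8 and cytotoxic genes summed to 1346 and 1475 CPM and the 8 NK genes to 239 and 200. Their part in the differences between the genotypes was not tested. Doublets called by Scrublet made up 26 of the WT members (4.88%) and 29 of the KO members (4.86%).

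The macrophages of these tumours were measured apart, in bulk RNA, with replicates. Ogt fell there from 56.3 ± 6.24 to 34.7 ± 3.86 CPM (SD, n = 3 libraries per genotype, log2 fold change -0.72, SE 0.0953, adjusted p = 2.98e-09, edgeR quasi-likelihood test with Benjamini-Hochberg adjustment over 12939 genes). Of 26 ligands for receptors of regulatory T cells tested, 11 fell and 4 rose at an adjusted p below 0.05, with a median log2 fold change of -0.12, where 18.9% of all genes fell and 18.8% rose (median of all genes -0.0013). In bulk RNA, fewer cells of a type and less RNA per cell cannot be told apart.

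The largest falls were those of the CCR4 ligands. Ccl22 had 133.6, 128.9 and 121.6 CPM in the WT libraries and 44.6, 47.9 and 47.6 in the KO libraries (log2 fold change -1.47, SE 0.0671, edgeR adjusted p = 8.02e-30). Ccl17 had 20.6, 22.9 and 18.0 CPM in WT and 6.72, 5.77 and 8.70 in KO (log2 fold change -1.55, SE 0.171, edgeR adjusted p = 7.87e-12). Every KO library lay below every WT library for both. Members themselves carried little of the receptor gene Ccr4, with 25.8 and 24.9 CPM.

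Ligands of costimulatory and checkpoint receptors went both ways or did not pass the test, as with Icosl and Cd40 (edgeR adjusted p = 0.748 and 0.987, n = 3). Cd80 and Cd86, bound by CTLA-4 and CD28, fell from 128 ± 2.67 to 96.1 ± 6.01 CPM and from 341 ± 10.5 to 281 ± 2.28 CPM (SD, n = 3 libraries per genotype, edgeR adjusted p = 2.23e-08 and 1.55e-10). Pdcd1lg2, which encodes the PD-1 ligand PD-L2, fell from 47.3 ± 2.87 to 29.8 ± 0.836 CPM, and Tnfsf9, the ligand of 4-1BB, from 54.4 ± 2.68 to 42.0 ± 0.869 CPM. Cxcl16, the ligand of CXCR6, fell from 780 ± 19.9 to 581 ± 3.68 CPM and Ccl4 from 280 ± 9.56 to 218 ± 2.46 CPM. Cd274 rose from 447 ± 0.238 to 532 ± 17.7 CPM and Tnf, the ligand of TNF receptor 2, from 169 ± 7.11 to 212 ± 3.70 CPM. Cxcl9 and Ccl3 rose slightly, with log2 fold changes of 0.10 and 0.20. Cxcl10 had 424 ± 17.3 and 407 ± 7.03 CPM (edgeR adjusted p = 0.139, n = 3) and Il10 36.9 ± 1.86 and 37.1 ± 1.79 (adjusted p = 0.973), neither of which passed the test. The falls of Tgfb1, Il6 and Pvr and the rise of Ccl3 lost the call under at least 1 alternative: without KO replicate 1 the adjusted p of Ccl3 was 0.105, and without WT replicate 2 that of Tgfb1 was 0.0871. Il6 lost it without WT replicate 1 or 2 or KO replicate 2 or 3 and in 2 other settings (adjusted p 0.0696 to 0.174), and Pvr without any 1 WT replicate or KO replicate 1 or 2 and in 2 other settings (0.0536 to 0.212).

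**Figure D5:**
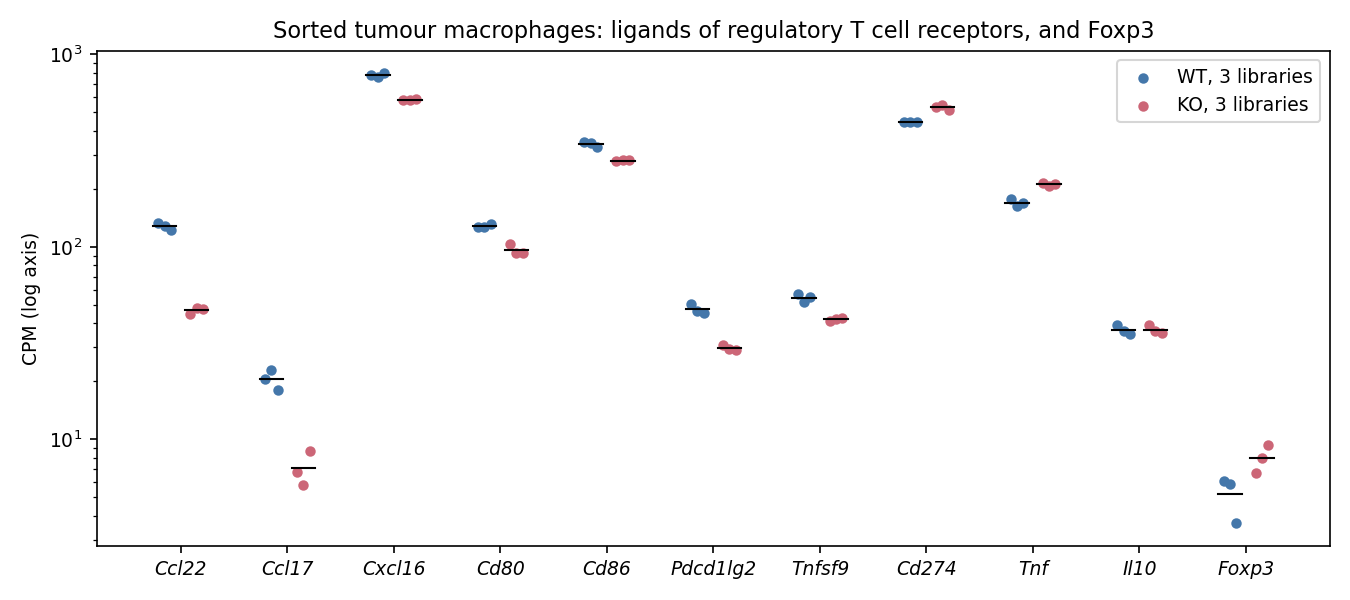
Normalised level (CPM, log axis) of 10 ligand genes and of Foxp3 in bulk RNA of tumour macrophages, 1 point per library (3 WT in blue, 3 KO in red) and black bars at the means. For Ccl22 and Ccl17 the KO libraries lie far below the WT libraries, for Cd274 and Tnf above them, and for Il10 they overlap.

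Regulatory T cell genes were also read in these macrophage libraries, at low levels. Foxp3 had 6.05, 5.87 and 3.66 CPM in WT and 6.69, 7.98 and 9.34 in KO, without overlap (log2 fold change 0.58, SE 0.236, edgeR adjusted p = 0.0436). The call was lost without WT replicate 3, without KO replicate 2, without KO replicate 3 and in 3 other settings, with adjusted p from 0.0595 to 0.207. Of 14 identity genes tested, 4 rose (Foxp3, Ctla4, Il2rb and Nrp1) and 3 fell (Capg, Socs2 and Swap70), with a median of 0.32. Over all genes tested, 18.8% rose and 18.9% fell. Il2rb, which NK and CD8 T cells also express, rose from 52.2 ± 3.26 to 110 ± 6.63 CPM, and Nrp1, which macrophages express, from 49.4 ± 4.78 to 102 ± 1.79 CPM (SD, n = 3 libraries per genotype, edgeR adjusted p = 1.23e-21 and 2.16e-20). Il2ra had 14.5 ± 1.37 and 14.6 ± 2.42 CPM and Ikzf2 6.60 ± 1.17 and 8.60 ± 0.572, neither past the test (edgeR adjusted p = 0.999 and 0.143, n = 3). The fall of Swap70 was lost without KO replicate 1 (adjusted p = 0.108).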

How the data were processed

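Per the file headers, the single-cell files hold counts of UMIs per gene and barcode that the authors made with Cell Ranger 8.0.1, and the macrophage files hold raw read counts per gene that the authors made with featureCounts 2.0.6 on GENCODE vM10. The submitters' processing notes name mm10. Per the file headers, each read of a pair was counted, strand was ignored and multi-mapped reads were left out, so near-identical or overlapping genes are uncertain. Library totals ran from 7032540 to 32406170 counts.

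UMIs were summed per class and matrix with Python 3.11.15, numpy 2.4.6, scipy 1.17.1 and pandas 2.3.3, and 26 repeated gene symbols were summed. Log2 ratios used a pseudocount of 5 CPM. Scrublet in scanpy 1.11.5 marked 4.89% of WT and 3.27% of KO cells as doublets, which were kept. For macrophages, low counts were removed with filterByExpr, libraries scaled by TMM, and KO compared with WT by the 2-sided quasi-likelihood test of edgeR 4.0.16 in R 4.3.3 (p adjusted by Benjamini-Hochberg), with DESeq2 1.42.0 as an alternative, and the scripts were tested on simulated data. Nothing says that libraries came from separate animals, so p-values measure the spread between these libraries, which may be technical.

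Members and gene lists were chosen with earlier results of these data known. Named genes were the 5 markers, Ogt, Oga, Lyz2, Egr2, the 10 highest and 10 lowest ratios (without mitochondrial, haemoglobin, antigen receptor, predicted, Y-linked and Xist genes), list members past the fold and up to 6 others per list by summed level; further ones were chosen after their values were seen.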

Additional observations from a re-analysis of the deposited data

How the results depend on the processing

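The ratio of the regulatory T cell share of all cells kept, KO over WT (1.13), was 1.29 with at least 1 Cd4 UMI required. It was 1.32 among members without a macrophage UMI (1.09 where Lyz2 was not among the macrophage genes, chosen after seeing the data). Thinning every cell kept to 1000 UMIs before the gate was applied left 99 WT and 134 KO members, and the ratio was 1.37. The thinned counts below are those of these members. The ratio of the share of T cells without CD8 stayed between 0.98 and 1.10. Counts of genes past the fold (74 higher, 89 lower) were 36 and 28 with a pseudocount of 20 CPM, and 16 and 7 after thinning, which left 385 genes to compare. Interferon genes higher (5) were 9 with at least 2 Foxp3 UMIs, 3 without macrophage UMIs (with or without Lyz2 among them) and 3 with a pseudocount of 20 CPM. They were 3 without the highest cell per gene (chosen after seeing the data) and 0 after thinning, which left 6 of these genes to compare. Tumour-tissue genes higher (4) were 0 of the 9 left after thinning. Heat shock genes lower (9) were 5 with a Cd4 UMI required and 2 of the 8 left after thinning. Cell cycle genes lower (4) were 0 without macrophage UMIs (with or without Lyz2 among them) and with a pseudocount of 20 CPM. After thinning, 1 cell cycle gene was left to compare, and it was not past the fold. Beyond the fewer genes left by thinning and the weight a larger pseudocount gives to low genes, the cause was not tested. Of 49 named genes past the fold, 49 kept their sign and 26 stayed past it in every alternative that could compare them. In macrophage RNA, 2432 genes rose and 2442 fell; leaving out 1 library gave 1981 to 2302 and 2010 to 2297, no filter 2587 and 2205, and DESeq2 2177 and 2226. With the replicate number as a block the counts were 2338 and 2353. Deviations of same-numbered libraries correlated at -0.0048, 0.0019 and 0.0112. No label says what the numbers pair, and with 3 libraries per genotype these correlations cannot exclude a pairing.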
